A study of Arabidopsis thaliana with 12 samples.

Results

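Leaf transcripts of Arabidopsis thaliana plants that lack CRWN1 and CRWN4 were compared with those of wild-type (WT) plants. The double mutant carries knockout alleles of both genes and is written crwn1;4 in the labels. Neither genotype was treated, and each is represented by 3 libraries of 12 in the series. The other libraries come from double mutant plants with a further CRISPR mutation in PNET2_A or PNET2_B, labelled pnet2_a and pnet2_b and here called the triple mutants. They enter the fit for its estimate of the spread, and their levels are given for a few genes. Strand-specific mRNA libraries were made from leaf samples of about 50 mg. The plant age is 3 weeks by the titles and 4 weeks by the protocol. Whether libraries of 1 genotype came from different plants is not labelled, so each p-value is set by the spread among these preparations, part or all of which may be technical. Genes were taken where 3 or more of the 6 WT and double mutant libraries reached 1 FPKM, which gave 17904 of 32833 genes in the deposited table. FPKM is the number of sequenced fragments per kilobase of transcript and of sequencing depth. At the edge of this rule, 434 genes reached 1 FPKM in exactly 3 libraries and were kept, and 491 reached it in exactly 2 and were not.

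CRWN proteins are long coiled-coil proteins under the inner nuclear membrane. They are the main structural proteins of the plant nuclear lamina and take the place of animal lamins, which plants lack. Loss of CRWN family members is known to make nuclei smaller, to alter chromatin at the nuclear edge and to raise salicylic acid defences in Arabidopsis leaves.

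The libraries totalled 641937 to 669711 FPKM, with 19841 to 20431 genes above 0, and read depth is unknown. Across the genes tested, log2 values of libraries of the same genotype correlated at 0.9839 to 0.9866 and of different genotypes at 0.9741 to 0.9829. Genes are not independent replicates. On the first principal component, which held 37.4% of the variance, WT lay at -13.3, -12.8 and -24.1 and the double mutant at 18.1, 11.0 and 21.1. Among the genes that rose, library 3 of the double mutant stands apart. It had the highest of the 3 double mutant values in 276 of the 419 rises (65.9%) and in 39.8% of all genes. Over all genes tested, it correlated at 0.9866 and 0.9862 with double mutant libraries 1 and 2, which correlated at 0.9863 with each other. Because of its share among the rises, counts below are also given without library 3. Leaf marker genes were high, with RBCS1A at up to 14339 FPKM. All 4 seed markers found and both pollen markers found were listed at 0 in all 6 libraries, as were 5 of 7 root markers, and no flower marker passed 2.96 FPKM. The summed guard cell markers were 53.2 to 57.7 FPKM in WT and 45.7 to 50.4 in the double mutant, with FAMA the only member of 6 called. The summed markers of dividing cells were 79.7 to 89.3 FPKM in WT and 69.7 to 77.1 in the double mutant, with none of 5 called. In whole leaves, fewer cells of a type and less RNA per cell cannot be told apart.

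Both targeted genes fell in every double mutant library. CRWN1 (AT1G67230) stood at 11.6, 13.5 and 12.2 FPKM in WT and at 1.74, 1.87 and 2.0 in the double mutant (log2 change -2.23, SE 0.12, limma adjusted p = 1.1e-07). CRWN4 (AT5G65770) stood at 6.53, 8.43 and 7.13 FPKM in WT and at 1.3, 1.24 and 1.24 in the double mutant (log2 change -1.88, SE 0.15, limma adjusted p = 1.02e-05). The genotypes did not overlap at either gene, and the lowest WT value was several times the highest double mutant value. CRWN4 overlaps AT5G65780 on the same strand, so reads of the overlap cannot be told apart. AT5G65780 itself stood at 14.8, 15.5 and 15.8 FPKM in WT and 15.4, 12.6 and 12.9 in the double mutant (limma adjusted p = 0.437). Within 25 kb of CRWN1 and CRWN4, 8 and 9 other genes were tested. None of the 17 was called, with log2 changes of -0.45 to 0.03 and -0.24 to 0.25.

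**Figure D1:**
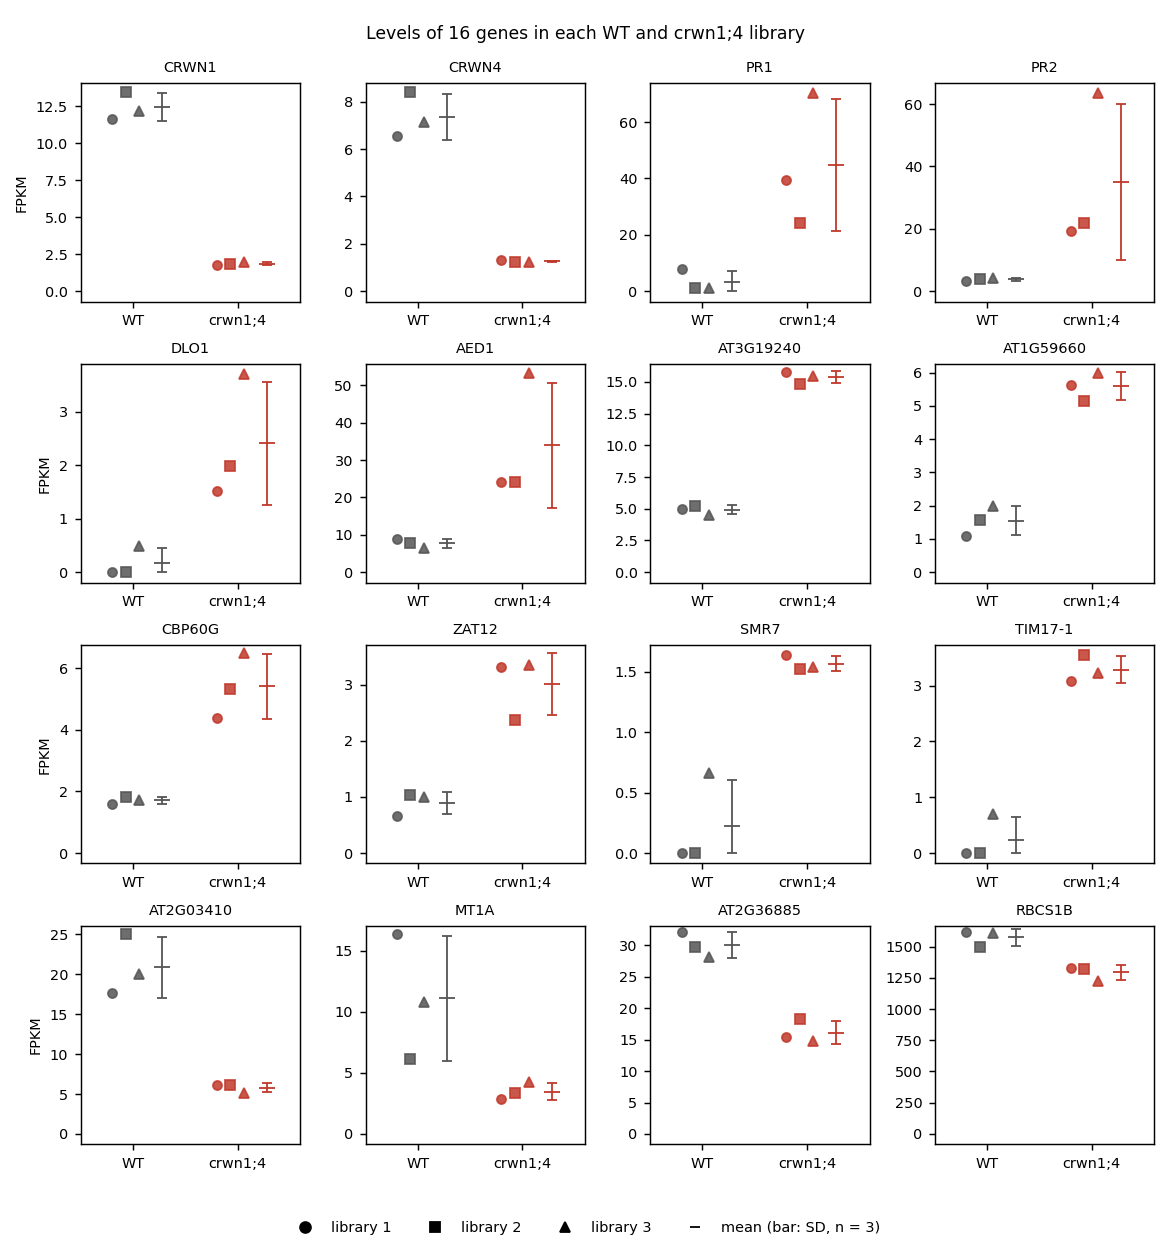
FPKM of 16 genes in each of the 3 WT and 3 double mutant (crwn1;4) libraries, with mean and SD beside the points (n = 3, SD bars cut at 0). CRWN1, CRWN4 and the other genes of the bottom row are lower in every double mutant library, and the rest are higher, with library 3 the highest for PR1, PR2, DLO1 and AED1.

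In all, 531 of 17904 genes were called at an adjusted p below 0.05, which is 2.97% of the genes tested. Of these, 419 rose (2.34%) and 112 fell (0.626%). Changes of at least 2-fold on the log2(FPKM + 1) scale were seen for 93 of the rises (0.519%) and 11 of the falls (0.0614%). At 3577 genes (20%) the double mutant libraries all lay on one side of the WT range, and 2113 of these were higher in the double mutant (11.8%) and 1464 lower (8.18%). Non-overlap draws on the same libraries as the calls, so it is no added support for any called gene named below. With library 3 of the double mutant left out, 222 genes rose (1.24%) and 65 fell (0.363%), and 214 of the 419 rises and 41 of the 112 falls were called again. Rises numbered 275 without WT library 1. Falls numbered 44 without WT library 3 and 43 without double mutant library 1. A set of 215 genes, 193 rises and 22 falls, was called with each of the 6 libraries left out in turn. A fit on the 6 libraries alone, which has 4 residual degrees of freedom in place of 8, called 152 rises (0.849%) and 31 falls (0.173%), and 182 of these 183 genes were among the 531. Of the 17904 genes, 72 were under 1 FPKM in every WT library and passed the filter only through the double mutant, so they had to differ in level. Of these 72 genes 48 rose, and of 43 genes that passed only through WT 5 fell. Log2 changes were above 0 at 9164 of the 17904 genes. Counts for lists and families below stand beside this number and the 2.34% and 0.626% that rose and fell. Whether a list differs from these shares was not tested.

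**Figure D2:**
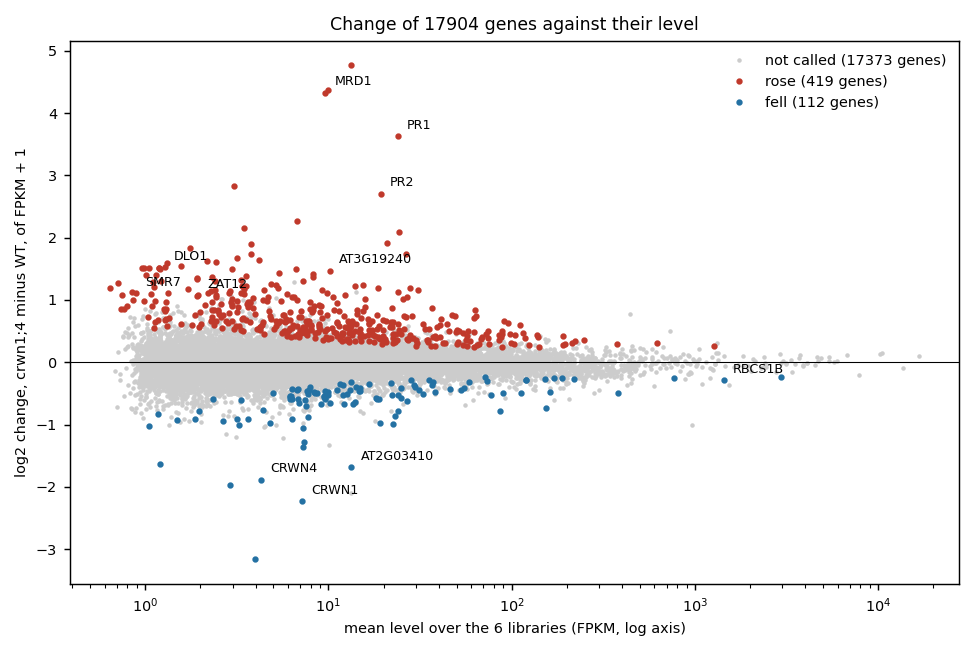
Log2 change of FPKM + 1 between the double mutant and WT (vertical axis) against the mean FPKM over the 6 libraries (log axis) for 17904 genes, coloured by call. The 419 rises reach further from 0 than the 112 falls, and CRWN1 and CRWN4 lie among the strongest falls.

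Genes of the salicylic acid defence were among the largest rises. Salicylic acid is made in the chloroplast through ICS1, is perceived by NPR proteins and induces secreted pathogenesis-related proteins. PR1, the usual marker of this response, stood at 7.8, 1.02 and 1.17 FPKM in WT and at 39.5, 24.3 and 70.3 in the double mutant (log2 change 3.63, SE 0.45, adjusted p = 0.00048, limma). PR2, a beta-1,3-glucanase, stood at 3.27, 3.79 and 4.27 FPKM in WT and 19.3, 21.8 and 63.7 in the double mutant (log2 change 2.71, SE 0.32, adjusted p = 0.000296). The largest rises and falls were named only where the genotypes did not overlap, so non-overlap at PR1 and PR2 is no added support. WT library 1 had the highest WT level of PR1, and library 3 had the highest level of both in the double mutant. With that library left out their adjusted p were 0.00276 and 1.36e-05. PR5, a thaumatin-like protein, rose to 41.9 ± 17.8 against 11.2 ± 1.13 FPKM (mean ± SD, n = 3, the double mutant first, as below), with log2 change 1.74, adjusted p = 0.000274. CHI (AT2G43570), annotated as a chitinase, stood at 1.19, 0 and 0.474 FPKM in WT and at 4.16, 3.42 and 11.6 in the double mutant (log2 change 2.16, adjusted p = 0.00203). These were the 4 rises among 8 tested genes listed as glucanases, chitinases and related PR proteins, whose median log2 change was 1.3 beside 0.01 for all genes. All 4 were also called without library 3. PCC1, annotated as pathogen and circadian controlled 1, went the other way. It stood at 234, 183 and 157 FPKM in WT and 89.1, 116 and 142 in the double mutant (log2 change -0.73, adjusted p = 0.0184, limma). The call of PCC1 was lost without WT library 1 (adjusted p = 0.071) or double mutant library 1 (adjusted p = 0.0623). It was also lost in the fit on the 6 libraries (adjusted p = 0.103).

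Genes of salicylic acid synthesis, its activators and its removal changed in part. Of 7 tested genes for its synthesis and activators, 2 rose, both activators, with a median log2 change of 0.45. ICS1, EDS5, PBS3 and EPS1 were not called, at log2 changes of 0.58, 0.42, 0.45 and -0.34. In limma the adjusted p was 0.0628 for ICS1 and 0.0613 for PBS3. CBP60G, a calmodulin-binding factor that activates ICS1, stood at 1.6, 1.81 and 1.74 FPKM in WT and 4.39, 5.34 and 6.51 in the double mutant (log2 change 1.23, SE 0.12, adjusted p = 8.69e-05). Its relative SARD1 had 6.73 ± 2.12 against 3.88 ± 0.665 FPKM (log2 change 0.64, adjusted p = 0.04), and this call ended without WT library 1 (0.101), WT library 2 (0.0975), double mutant library 2 (0.0596) or double mutant library 3 (0.119), with the adjusted p of each such fit in parentheses here and below. Of 3 tested genes for salicylic acid breakdown and conjugation, 2 rose, both of them hydroxylases that inactivate salicylic acid. DLO1 was listed at 0, 0 and 0.490 FPKM in WT and stood at 1.52, 1.99 and 3.71 in the double mutant (log2 change 1.52, adjusted p = 0.0016), and it passed the filter only through the double mutant. DMR6 stood at 10.5, 9.2 and 9.63 FPKM in WT and 14.6, 15.2 and 26.9 in the double mutant (log2 change 0.83, adjusted p = 0.0188), and its call ended without WT library 3 (0.0534). Of 7 listed genes for N-hydroxypipecolic acid and systemic resistance, 4 were tested and 1 rose. It was AED1, a secreted aspartyl protease induced during systemic resistance, at 8.89, 7.84 and 6.38 FPKM in WT and 24.1, 24.2 and 53.3 in the double mutant (log2 change 1.91, SE 0.22, adjusted p = 0.000261). The double mutant values of AED1 were near each other in libraries 1 and 2 and higher in library 3. The other 3 tested genes of this list, SARD4, AZI1 and DIR1, were not called, at log2 changes of -0.05, 0.31 and -0.43. Of 6 NPR receptor and NIMIN genes 1 rose, NIMIN1 (median 0.16), and of 8 genes of the EDS1 family and helper receptors 1 rose, SAG101 (median 0.37). The call of NIMIN1 was lost without WT library 2 (0.0627), WT library 3 (0.118), double mutant library 2 (0.0986) or double mutant library 3 (0.136), and that of SAG101 without WT library 1 (0.126), WT library 2 (0.0914), double mutant library 1 (0.0979), double mutant library 2 (0.0535) or double mutant library 3 (0.136). The fit on the 6 libraries did not call SARD1, DMR6, NIMIN1 or SAG101 (adjusted p = 0.186, 0.099, 0.184 and 0.169).

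Short motifs were counted in the 300 bases upstream of each gene, up to the base before the annotated start in the TAIR10.1 reference (RefSeq). TTGAC is the core of the W box bound by WRKY factors, and TGACG the core of TGA factor sites. Over protein-coding genes, TTGAC occurred on either strand in 57.6% of the 403 rises, 57.4% of the 101 falls and 49.4% of 16923 genes with a window. TGACG occurred in 27.0%, 21.8% and 21.8%. Among the 189 rises called with each library left out, the shares were 59.8% for TTGAC and 33.3% for TGACG. The motifs can overlap as TTGACG. A match is a string of letters, not a bound site.

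Some receptors and receptor kinases of the cell surface rose. Cysteine-rich receptor-like kinases (CRKs) are a large family, many of whose members are induced by pathogens and salicylic acid. Of 23 tested, 6 rose and none fell, with a median log2 change of 0.25 and 21 values above 0, and 3 rose without library 3. CRK6 stood at 0.582, 1.41 and 0.859 FPKM in WT and 3.95, 5.68 and 10.3 in the double mutant (log2 change 1.91, SE 0.23, adjusted p = 0.000309). CRK4 stood at 4.09, 3.55 and 4.26 FPKM in WT and 11.1, 9.66 and 16.8 in the double mutant (log2 change 1.41, adjusted p = 0.000111). CRK4 did not overlap between genotypes, and library 3 was highest for CRK6 and CRK4. ARCK1, a receptor-like kinase without an outer domain that overlaps AT4G11900, rose to 6.91 ± 2.6 against 1.46 ± 0.231 FPKM (log2 change 1.64, adjusted p = 0.000108). Receptor-like proteins (RLPs) have an outer leucine-rich repeat domain but no kinase, and signal through the partner kinase SOBIR1. SOBIR1 stood at 17.9, 21.1 and 15.6 FPKM in WT and 33.9, 34.7 and 60.8 in the double mutant (log2 change 1.16, SE 0.17, adjusted p = 0.00158). Of 26 RLP genes 5 rose (median 0.15, 20 above 0), and 3 rose without library 3. The tightest was RLP19, at 5.78, 5.72 and 5.24 FPKM in WT and 11.5, 10.6 and 10.4 in the double mutant (log2 change 0.85, SE 0.083, adjusted p = 8.19e-05), where no library stood apart. RLP23, the receptor for nlp20 peptides of microbes, stood at 1.17, 0.616 and 0.649 FPKM in WT and 2.84, 1.71 and 7.51 in the double mutant (log2 change 1.31, adjusted p = 0.0244), and its call ended without WT library 2 (0.061) or WT library 3 (0.0772) and in the fit on the 6 libraries (0.142). Of the 19 tested genes for pattern receptors and early signalling, SOBIR1 and RLP23 were the only ones called.

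Some intracellular immune receptor genes of the NLR class and calcium signalling genes also rose. The 6 tested NLR genes of the RPP5 cluster had a median log2 change of 0.20. RPP4 rose to 41.5 ± 2.12 against 34.5 ± 1.93 FPKM (log2 change 0.26, adjusted p = 0.0498) and RPP5 to 39.6 ± 0.8 against 33.1 ± 1.98 FPKM (log2 change 0.25, adjusted p = 0.0421). Of the fits that left out 1 library, only the fit without WT library 2 kept these calls. RPP4 was lost without WT library 1 (0.128), WT library 3 (0.143), double mutant library 1 (0.0834), double mutant library 2 (0.0723) or double mutant library 3 (0.179), and RPP5 without WT library 1 (0.0693), WT library 3 (0.153), double mutant library 1 (0.087), double mutant library 2 (0.106) or double mutant library 3 (0.107). Genes of this cluster are near-identical in sequence and share reads, so the split between them is uncertain. By the words of their annotation, a grouping chosen after the values were seen, 10 of 121 disease resistance or TIR-domain genes rose and none fell. Of all genes 2.34% rose and 9164 of 17904 were above 0. The 121 had 103 values above 0 and a median of 0.16. Without library 3, 5 rose. Among the 10, AT5G41750, a TIR-type receptor gene, was at 0.473, 0.402 and 0 FPKM in WT and 1.78, 1.72 and 2.35 in the double mutant (log2 change 1.2, adjusted p = 0.000775), and passed the filter only through the double mutant. AT1G66090 had 3.38 ± 0.429 against 1.25 ± 0.188 FPKM (log2 change 0.96, adjusted p = 0.00119). HR4, a homolog of the broad resistance protein RPW8 that was also picked with its values known, had 36.9 ± 13.98 against 16.7 ± 2.2 FPKM (log2 change 1.04, adjusted p = 0.00659). Of 13 tested calcium sensors and pumps, 5 rose and none fell (median 0.52, 12 above 0), and 3 rose without library 3. CML41, a calmodulin-like protein of plasmodesmata, stood at 2.32, 3.07 and 2.39 FPKM in WT and 7.41, 5.29 and 5.95 in the double mutant (log2 change 1.0, SE 0.13, adjusted p = 0.000703). CPK28, a calcium-dependent kinase that limits immune signalling, had 9.86 ± 0.537 against 6.3 ± 1.04 FPKM (log2 change 0.58, adjusted p = 0.00863). The syntaxin SYP122, which acts in secretion at the plasma membrane, had 14.1 ± 3.67 against 7.27 ± 0.463 FPKM (log2 change 0.84, adjusted p = 0.00249) and was the only 1 of 8 genes of cell death and secretion called. The fit on the 6 libraries did not call RPP4, RPP5, HR4 or CPK28 (adjusted p = 0.194, 0.186, 0.0648 and 0.0705).

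**Figure D3:**
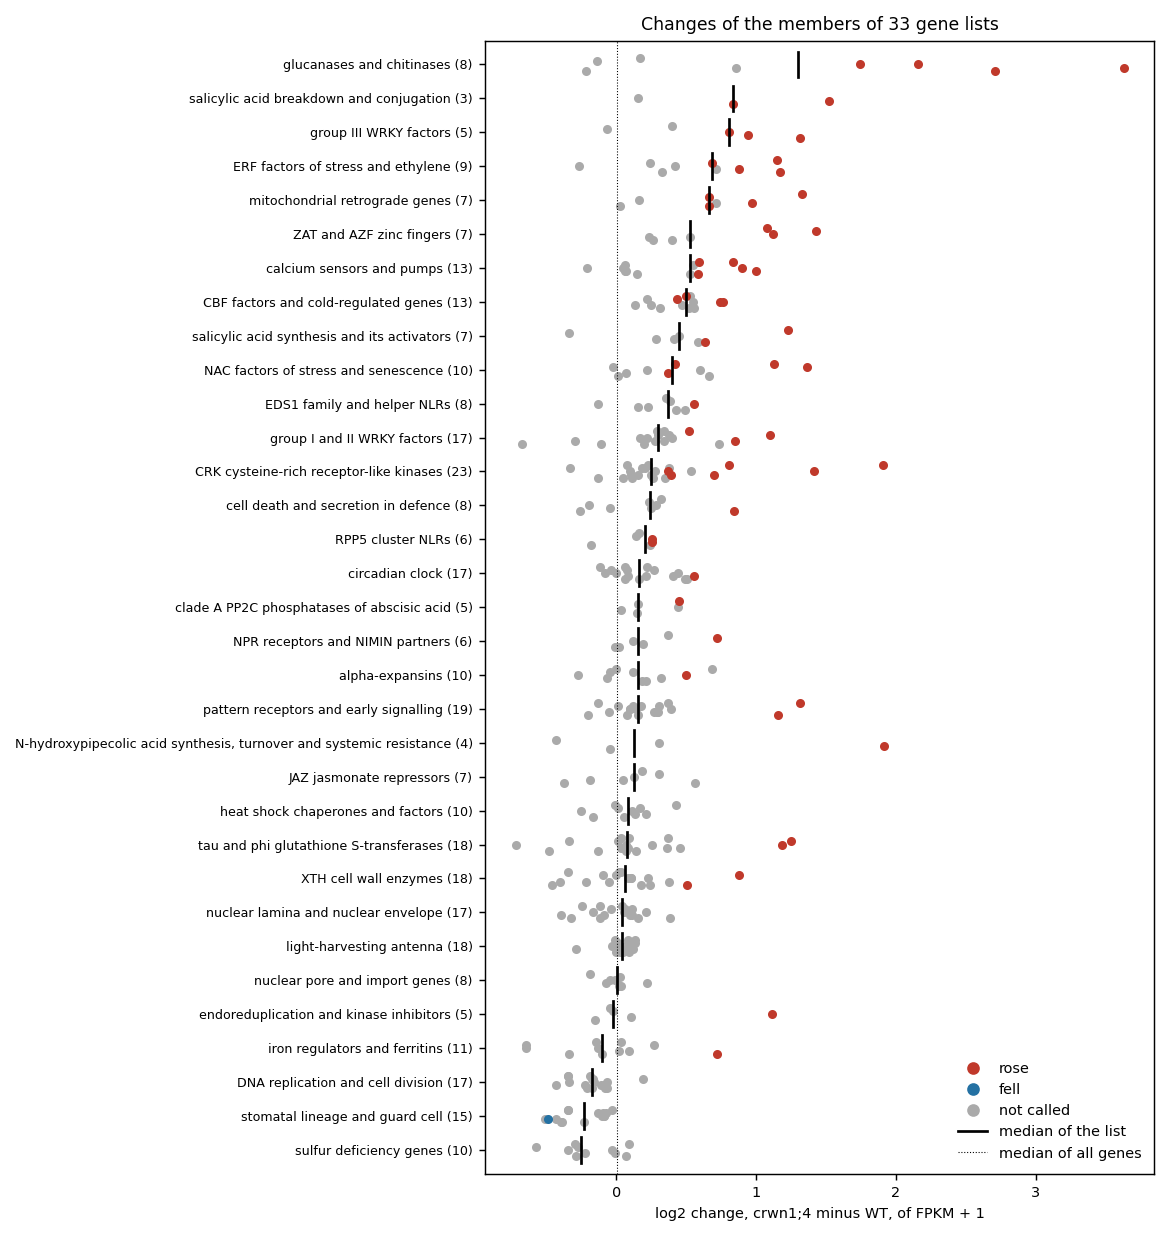
Log2 change of FPKM + 1 (double mutant minus WT) of every tested member of 33 gene lists, in order of the list median, with the number tested in parentheses. The list labelled glucanases and chitinases, which also holds PR1 and PR5, has the highest median at 1.3. Sulfur deficiency genes have the lowest at -0.25, and the only member called downward is FAMA in the stomatal list.

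Transcription factor genes of several stress-related families rose, and none of those listed fell. WRKY factors bind the W box and are induced in immunity. Of 13 listed group III WRKY genes 5 were tested and 3 rose, with a median of 0.81. WRKY38 stood at 0.388, 0.428 and 0 FPKM in WT and 1.54, 2.13 and 2.8 in the double mutant (log2 change 1.31, SE 0.18, adjusted p = 0.00081), and passed the filter only through the double mutant. WRKY46 and WRKY53 had log2 changes of 0.94 and 0.81, and their calls ended without WT library 3 (0.0614) and without double mutant library 3 (0.0587), and in the fit on the 6 libraries (0.104 and 0.0966). Of 17 tested group I and II genes 3 rose (median 0.30), led by WRKY25 at 8.47 ± 1.88 against 3.44 ± 1.03 FPKM (log2 change 1.1, adjusted p = 0.00225). Of 9 ethylene response factors tested 4 rose (median 0.68). ERF1A and ERF6 are neighbours on chromosome 4. ERF1A stood at 1.23, 1.88 and 2.06 FPKM in WT and 5.74, 3.84 and 5.91 in the double mutant (log2 change 1.17, SE 0.16, adjusted p = 0.00101). ERF6 stood at 1.51, 1.8 and 1.01 FPKM in WT and 4.63, 4.65 and 3.83 in the double mutant (log2 change 1.15, SE 0.17, adjusted p = 0.00203). Neither gene overlapped between genotypes. Of 10 stress and senescence NAC factors 4 rose (median 0.40). NAC036 rose to 12.3 ± 3.88 against 4.07 ± 0.788 FPKM (log2 change 1.36, SE 0.19, adjusted p = 0.000933). Without library 3 the number of rises was 2 of 5 group III WRKY, 2 of 17 other WRKY, 2 of 9 ERF and 2 of 10 NAC genes. The tandem zinc finger genes SZF1 and CZF1, of stress and defence responses, had 14.7 ± 1.31 against 6.53 ± 0.307 FPKM and 11.2 ± 2.2 against 5.55 ± 1.1 FPKM (log2 changes 1.05 and 0.90, adjusted p of 0.000108 and 0.00166). CZF1 was chosen after its values were seen.

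All 7 tested ZAT and AZF zinc finger genes, repressors induced by many stresses, had log2 changes above 0 (median 0.53), and 3 of them rose. The same 3 rose without library 3. ZAT12, a regulator of responses to oxidative stress, cold and light, stood at 0.669, 1.03 and 0.996 FPKM in WT and 3.32, 2.37 and 3.35 in the double mutant (log2 change 1.08, SE 0.13, adjusted p = 0.000309). ZAT10 had 8.34 ± 2.61 against 2.43 ± 0.648 FPKM (log2 change 1.43, adjusted p = 0.000485) and ZAT7 2.22 ± 0.652 against 0.463 ± 0.0672 FPKM (log2 change 1.12, adjusted p = 0.00142). ZAT7 passed the filter only through the double mutant. The libraries of ZAT12 and ZAT10 did not overlap between genotypes. Cold-regulated genes differed by smaller amounts. All 13 tested had log2 changes above 0 (median 0.50), 4 rose, and 3 rose without library 3. COR15A, a protein that protects chloroplast membranes in the cold, stood at 32.4, 36.4 and 35.7 FPKM in WT and 52.1, 63.1 and 65.2 in the double mutant (log2 change 0.77, SE 0.083, adjusted p = 0.000163). RD29A, a gene of drought and cold response, stood at 31.7, 39.8 and 37.4 FPKM in WT and 58.1, 54.9 and 71.4 in the double mutant (log2 change 0.74, adjusted p = 0.00148). COR47, a dehydrin, stood at 67.8, 78.4 and 73.3 FPKM in WT and 106, 96.2 and 108 in the double mutant (log2 change 0.50, adjusted p = 0.00251). ERD7, a gene induced early in dehydration, stood at 24.5, 28.5 and 23.99 FPKM in WT and 43.7, 43.5 and 56.7 in the double mutant (log2 change 0.87, adjusted p = 0.000209). GolS2, galactinol synthase of the raffinose pathway, had 3.78 ± 0.821 against 0.837 ± 0.125 FPKM (log2 change 1.37, adjusted p = 0.00255), and passed the filter only through the double mutant. P5CS1, an enzyme of proline synthesis, had 47.1 ± 2.01 against 31.5 ± 1.66 FPKM (log2 change 0.57, adjusted p = 0.00177).

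The upstream windows of ZAT12 and ERD7 are shown because they hold more than 1 copy of CGCGT, the motif whose share differed most in ratio between rises and all genes among 10 searched. Both are from TAIR10.1: ZAT12 at chr5:24102514-24102813 on the plus strand and ERD7 at chr2:7757930-7758229 on the minus strand. Capitals mark CGCGT on either strand and, for ZAT12, TTGAC on either strand.
ZAT12: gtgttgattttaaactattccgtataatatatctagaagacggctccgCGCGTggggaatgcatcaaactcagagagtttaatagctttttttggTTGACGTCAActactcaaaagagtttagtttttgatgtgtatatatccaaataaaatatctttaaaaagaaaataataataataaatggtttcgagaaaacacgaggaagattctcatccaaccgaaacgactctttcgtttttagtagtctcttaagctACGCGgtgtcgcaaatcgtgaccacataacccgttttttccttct
ERD7: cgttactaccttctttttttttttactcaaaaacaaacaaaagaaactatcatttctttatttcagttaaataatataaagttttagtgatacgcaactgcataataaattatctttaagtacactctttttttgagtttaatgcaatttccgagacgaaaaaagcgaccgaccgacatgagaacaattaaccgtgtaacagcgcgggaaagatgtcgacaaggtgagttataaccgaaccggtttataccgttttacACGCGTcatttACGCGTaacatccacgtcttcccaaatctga
In ZAT12, CGCGT starts 252 and, on the other strand, 45 bases before the gene start, and TTGAC matches on both strands, which overlap a TGACG, form the joined stretch 205 bases before it. In ERD7, each of the stretches 42 and 31 bases before the start reads CGCGT on either strand. CGCGT, the core of sites bound by calmodulin-binding CAMTA factors, occurred on either strand in 58 of 403 rises (14.4%), 3 of 101 falls (2.97%) and 8.34% of 16923 genes. Among the 189 rises called with each library left out it occurred in 17.5%. CCGAC, the core of the site of CBF cold factors, occurred in 18.6% of rises, 12.9% of falls and 15.3% of all. CACGTG, the G box, occurred in 7.44%, 8.91% and 7.84%, and AAATATCT, the core of the clock's evening element, in 7.20%, 6.93% and 6.07%. The remaining motifs were TTGACC, in 17.1%, 7.92% and 13.5%, AAACCCTA, the telo box, in 3.23%, 2.97% and 4.44%, and CTTG and CA with 5 bases between them, found at targets of NAC013, in 10.7%, 8.91% and 8.55%. TTGACC is a longer form of TTGAC, so these shares are nested.

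Several nuclear genes that respond to mitochondrial stress rose. All 7 tested genes of this retrograde list had log2 changes above 0 (median 0.66), 4 rose, and 3 rose without library 3. AOX1A, the alternative oxidase of the respiratory chain, stood at 15.2, 15.9 and 15.8 FPKM in WT and 23.5, 25.01 and 27.7 in the double mutant (log2 change 0.66, SE 0.069, adjusted p = 0.000117). OM66, an outer membrane protein, stood at 1.93, 1.11 and 1.36 FPKM in WT and 3.73, 5.64 and 6.29 in the double mutant (log2 change 1.33, SE 0.16, adjusted p = 0.000423). DIC2, a dicarboxylate carrier, had 10.8 ± 1.83 against 5.07 ± 1.46 FPKM (log2 change 0.97, adjusted p = 0.0157), a call lost without WT library 1 (0.0648) or double mutant library 3 (0.0766). TIM17-1 and AAC3, outside that list, also rose. TIM17-1, a form of an inner membrane import subunit, was listed at 0, 0 and 0.703 FPKM in WT and stood at 3.08, 3.55 and 3.23 in the double mutant (log2 change 1.84, SE 0.18, adjusted p = 8.19e-05), and passed the filter only through the double mutant. AAC3, an ADP/ATP carrier, stood at 3.42, 2.81 and 2.25 FPKM in WT and 6.45, 8.62 and 8.11 in the double mutant (log2 change 1.19, adjusted p = 0.000108). At TIM17-1 and AAC3 library 3 was not the highest. Transcripts of the mitochondrial genome itself totalled 51.3 to 62.9 FPKM in WT and 50.8 to 52.3 in the double mutant, and those of the plastid genome 712 to 779 and 586 to 699 FPKM. The part of RNA selection in these organelle levels was not tested.

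Of the genes for glutathione transferases, 2 of 18 tested tau and phi class members rose and none fell, with a median of 0.08. These were GSTF6 and GSTF7, near-identical neighbours on chromosome 1 that can share reads. GSTF6 had 39.6 ± 10.7 against 16.4 ± 1.47 FPKM (log2 change 1.19, adjusted p = 0.00048) and GSTF7 22.3 ± 5.04 against 8.72 ± 1.05 FPKM (log2 change 1.25, adjusted p = 0.000209), and the split between them is uncertain. Of 92 genes of cytochrome P450 enzymes 8 rose (median 0.12, 67 above 0) and none fell, and 7 rose without library 3. Of all genes 2.34% rose and 9164 of 17904 were above 0. CYP83B1, which commits indole oximes to glucosinolates, stood at 77.5, 77.4 and 70.1 FPKM in WT and 95.3, 106 and 95.9 in the double mutant (log2 change 0.40, adjusted p = 0.00225). AT3G44970, annotated as a P450 by its product but outside the CYP symbols, fell from 2.41, 1.98 and 2.43 FPKM to 0.911, 0.579 and 0.658 (log2 change -0.94, adjusted p = 0.0059), and passed the filter only through WT. FER1, a ferritin that stores iron in plastids, stood at 49.9, 46.7 and 44.2 FPKM in WT and 92.1, 75.8 and 67.2 in the double mutant (log2 change 0.72, adjusted p = 0.00659), with library 1 highest. It was the only 1 of 11 tested iron genes called (median -0.10). Of 18 XTH wall enzymes 2 rose (median 0.06): TCH4, an enzyme induced by touch, had 29.4 ± 7.38 against 15.2 ± 1.15 FPKM (log2 change 0.88, adjusted p = 0.00659). XTH24 was called with an adjusted p of 0.0473 and lost without WT library 1 (0.138), WT library 2 (0.0509), double mutant library 1 (0.14) or double mutant library 3 (0.177) and in the fit on the 6 libraries (0.183).

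SMR7 and NAC044, genes known from the DNA damage response, rose from levels at or near 0. No list of DNA damage genes was tested, so these single genes do not speak for that response. Plants respond to DNA damage through the NAC factor SOG1, which induces inhibitors of cyclin-dependent kinases and the NAC factors NAC044 and NAC085. SMR7, such an inhibitor of the SIAMESE family, was listed at 0, 0 and 0.665 FPKM in WT and stood at 1.64, 1.53 and 1.54 in the double mutant (log2 change 1.12, SE 0.19, adjusted p = 0.00494). NAC044 was listed at 0 in all WT libraries and reached 1.41, 1.62 and 1.24 FPKM in the double mutant (limma adjusted p = 0.000163). Both levels are low, both genes passed the filter only through the double mutant, and neither had its highest value in library 3. In the triple mutants NAC044 stood at 4.59, 5.4 and 5.08 FPKM with pnet2_a and 4.45, 5.91 and 4.68 with pnet2_b. PARG2, a glycohydrolase that removes poly(ADP-ribose) and is induced by DNA damage, had 3.12 ± 1.31 against 1.11 ± 0.239 FPKM (log2 change 0.93, adjusted p = 0.0103) and was chosen with its values known. SMR7 was the only rise among 5 tested genes of endoreduplication and kinase inhibition (median -0.03). The fit on the 6 libraries did not call SMR7 or PARG2 (adjusted p = 0.0764 and 0.104). ICK5, an inhibitor of cyclin-dependent kinases outside that list, fell to 1.5 ± 0.582 against 3.78 ± 0.731 FPKM (log2 change -0.95, adjusted p = 0.0359). Its call was lost without WT library 1 (0.0571), WT library 2 (0.0603), WT library 3 (0.134), double mutant library 1 (0.106) or double mutant library 3 (0.136) and in the fit on the 6 libraries (0.065). None of 17 tested genes of DNA replication and cell division was called, at a median of -0.17 with 1 value above 0, and 3 were lower at an unadjusted p below 0.05. The value above 0 was that of the cyclin CYCB1;1, at 2.74 ± 0.314 against 2.39 ± 1.06 FPKM (log2 change 0.19, adjusted p = 0.684, limma). The summed markers of dividing cells given above share members with this list. KNOLLE, the syntaxin of the cell plate, was nearest to a call at 11.7 ± 2.34 against 15.97 ± 0.856 FPKM (log2 change -0.43, adjusted p = 0.0684). CDC20.2, an activator of the anaphase-promoting complex that was picked with its values known, fell from 10.4, 11.3 and 12.6 FPKM to 7.07, 7.81 and 7.55 (log2 change -0.55, SE 0.10, adjusted p = 0.00841).

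The upstream windows of SMR7 and NAC044 are shown because each holds CTT and AAG with 7 bases of any kind between them, the palindromic motif bound by SOG1. They are from TAIR10.1, at chr3:10231568-10231867 on the minus strand and chr3:228775-229074 on the plus strand, with the fixed letters of the motif in capitals.
SMR7: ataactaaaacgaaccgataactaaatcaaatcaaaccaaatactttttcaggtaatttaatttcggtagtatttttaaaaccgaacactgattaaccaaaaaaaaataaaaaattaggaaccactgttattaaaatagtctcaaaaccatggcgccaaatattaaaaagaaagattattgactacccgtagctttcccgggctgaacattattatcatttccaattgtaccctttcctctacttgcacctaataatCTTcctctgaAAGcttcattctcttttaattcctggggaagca
NAC044: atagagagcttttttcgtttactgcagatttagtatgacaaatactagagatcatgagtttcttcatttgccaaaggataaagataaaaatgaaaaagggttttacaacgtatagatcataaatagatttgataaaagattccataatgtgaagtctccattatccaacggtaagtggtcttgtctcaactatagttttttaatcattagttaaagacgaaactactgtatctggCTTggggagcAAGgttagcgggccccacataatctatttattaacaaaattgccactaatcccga
The match starts 43 bases before the gene start in SMR7 and 65 bases before it in NAC044. The same letters occurred in 12.2% of the 403 rises, 9.90% of the 101 falls and 10.1% of all 16923 windows, and in 14.3% of the 189 rises called with each library left out.

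None of 17 tested genes of the lamina and envelope other than the 2 targets was called, at a median of 0.04, and log2 changes ran from -0.40 to 0.38. None of 8 listed nuclear pore and import genes was called (median 0.01, or -0.01 after quantile normalization). These counts of 0 do not set the lists apart, since 2.97% of all genes were called. At an unadjusted p below 0.05, 2 of the envelope genes and none of the pore genes were lower. Outside these lists, AT1G59660, annotated as a nucleoporin autopeptidase, rose. It stood at 1.1, 1.56 and 1.98 FPKM in WT and 5.62, 5.16 and 6.0 in the double mutant (log2 change 1.39, SE 0.14, adjusted p = 8.14e-05), and the double mutant libraries lay within 1 FPKM of each other. RAE1, a pore protein of messenger RNA export picked with its values known, stood at 10.8, 9.27 and 10.6 FPKM in WT and 16.9, 14.5 and 18.7 in the double mutant (log2 change 0.66, adjusted p = 0.00109).

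The smallest adjusted p belonged in part to genes outside the lists. AT3G19240, annotated as a Vid27-related protein of vacuolar import and degradation, had the smallest adjusted p of any gene above 0 in all 6 libraries after CRWN1 and MIR5642a. It stood at 5.02, 5.21 and 4.5 FPKM in WT and 15.8, 14.8 and 15.5 in the double mutant (log2 change 1.47, SE 0.087, adjusted p = 2.22e-07), and overlaps AT3G19250 on the other strand. The locus MIR5642a stood at 1.67, 1.77 and 1.48 FPKM in WT and 13.7, 11.9 and 9.69 in the double mutant (log2 change 2.26, adjusted p = 5.76e-08), but overlaps AT3G41762 and AT3G06325, whose reads it may hold. AT1G09640, the gamma chain of translation elongation factor EF1B, stood at 48.1, 49.4 and 44.7 FPKM in WT and 83.2, 76.5 and 81.6 in the double mutant (log2 change 0.75, SE 0.062, adjusted p = 1.38e-05). AT5G43450, a 2-oxoglutarate-dependent oxygenase, had 13.2 ± 0.901 against 5.34 ± 0.731 FPKM (log2 change 1.16, adjusted p = 5.13e-05), and BCB, a blue copper-binding protein of stress response, 19.9 ± 4.01 against 7.86 ± 0.679 FPKM (log2 change 1.22, adjusted p = 0.000156). Library 3 was the highest double mutant library at AT5G43450 and BCB and was not at the other genes.

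Other genes outside the lists also rose or fell. PCR1, a membrane protein of the cadmium resistance family, stood at 11.3, 8.2 and 5.79 FPKM in WT and 37.4, 25.4 and 58.02 in the double mutant (log2 change 2.1, SE 0.25, adjusted p = 0.000332). ABCC3, a transporter of glutathione conjugates, had 7.7 ± 1.97 against 2.61 ± 0.31 FPKM (log2 change 1.25, adjusted p = 0.000124), and RING1, a RING-type ubiquitin ligase gene, 33.3 ± 6.52 against 14.6 ± 2.17 FPKM (log2 change 1.13, adjusted p = 0.00019). In the other direction GASA1, of the gibberellin-regulated peptide family, fell from 173, 197 and 198 FPKM to 127, 125 and 157 (log2 change -0.48, adjusted p = 0.00642). The locus AT1G06957 fell from 4.31, 3.85 and 7.39 FPKM to 0.509, 1.34 and 0 (log2 change -1.98, adjusted p = 0.00148), the largest fall after CRWN1 among called genes above 0 in some library of both genotypes. All 5 of these genes were called with each library left out, and GASA1 was not called by the fit on the 6 libraries (adjusted p = 0.0648).

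**Figure D4:**
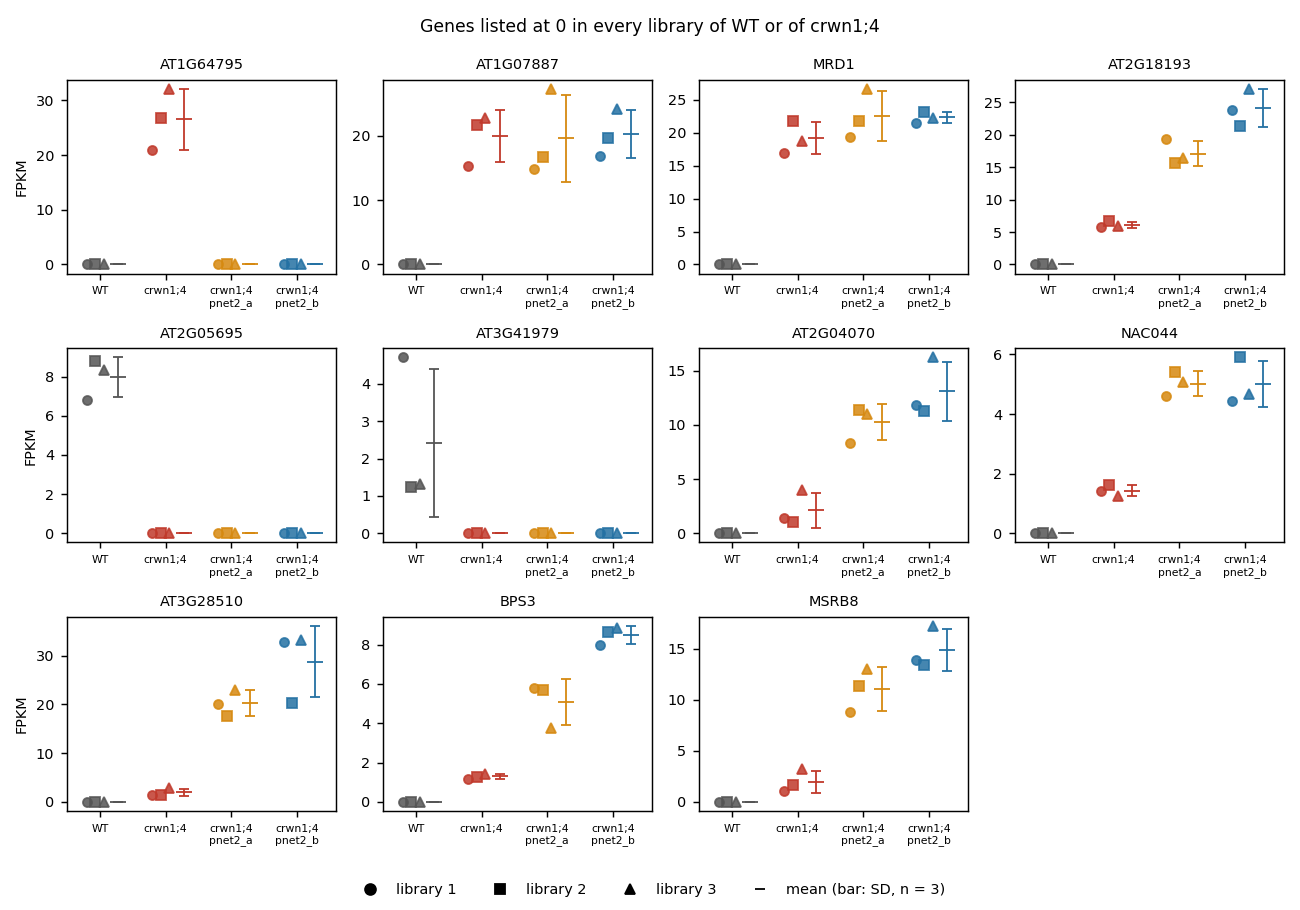
FPKM of the 11 genes listed at 0 in every library of WT or of the double mutant and at 1 or more in all libraries of the other, shown in all 4 genotypes with mean and SD (n = 3, SD bars cut at 0). AT1G64795 has values above 0 only in the double mutant, and AT2G05695 and AT3G41979 only in WT.

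For 11 genes every library of one genotype was listed at 0 while every library of the other reached 1 FPKM, so no fold is given. They passed the filter only through one genotype, so that they differ follows from how they were found. AT1G64795, an uncharacterized protein-coding gene, reached 20.9, 26.8 and 32.1 FPKM in the double mutant and was listed at 0 in WT and in both triple mutants. It overlaps AT1G64790 on the other strand. MRD1 reached 17.02, 21.9 and 18.8 FPKM in the double mutant, at 19.3, 21.8 and 26.7 with pnet2_a and at 21.4, 23.2 and 22.3 with pnet2_b. The non-coding AT1G07887 overlaps MRD1 on the other strand and reached 15.3, 21.6 and 22.8 FPKM in the double mutant, so reads of the pair may be shared. AT2G18193, an ATPase of the P-loop class, reached 5.77, 6.69 and 5.92 FPKM in the double mutant, at 19.3, 15.6 and 16.4 with pnet2_a and at 23.9, 21.3 and 27.1 with pnet2_b. The other 5 rises of this kind were below 4 FPKM in the double mutant: NAC044, the MATE transporter gene AT2G04070 (next to AT2G04080 of the same family), the ATPase gene AT3G28510, BPS3 and the methionine sulfoxide reductase MSRB8. In the other direction, the non-coding AT2G05695 stood at 6.82, 8.77 and 8.32 FPKM in WT and was listed at 0 in all 9 mutant libraries. AT3G41979, a ribosomal RNA gene, stood at 4.72, 1.25 and 1.31 in WT and was listed at 0 in the 9 as well, and overlaps AT3G06355. The fit on the 6 libraries did not call it (adjusted p = 0.0658). The part of ribosomal RNA removal in the last value was not tested.

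Falls were fewer and smaller. AT2G03410, a Mo25 family gene, stood at 17.6, 25.1 and 20.01 FPKM in WT and 6.14, 6.09 and 5.11 in the double mutant (log2 change -1.68, SE 0.33, adjusted p = 0.0121). The call was lost without double mutant library 3 (0.0519), and the gene overlaps AT2G03420 and AT2G03430 on the other strand. FTM1, a stearoyl-acyl carrier protein desaturase, fell from 9.25, 8.36 and 13.03 FPKM to 3.18, 5.28 and 4.68 (log2 change -1.06, SE 0.19, adjusted p = 0.00796). GER2, a germin-like protein, fell from 4.6, 4.45 and 4.9 to 2.62, 1.67 and 1.27 (log2 change -1.01, adjusted p = 0.00863), and AT1G62500, a lipid-transfer type protein, from 20.7, 29.99 and 26.5 to 10.9, 12.6 and 14.1 (log2 change -0.98, adjusted p = 0.00749). AT2G36885, annotated as a translation initiation factor, fell from 32.2, 29.7 and 28.1 to 15.4, 18.2 and 14.7 FPKM (log2 change -0.86, SE 0.10, adjusted p = 0.000286). The metallothionein MT1A, a small copper-binding protein, fell from 16.4, 6.17 and 10.8 to 2.85, 3.32 and 4.25 FPKM (log2 change -1.36, adjusted p = 0.0177), with WT values that spread over more than 2-fold. Its call was lost without WT library 1 (0.0648), WT library 3 (0.0534) or double mutant library 1 (0.063). The adjacent MT1C, picked with its values known, had 17.1 ± 2.26 against 30.9 ± 9.84 FPKM (log2 change -0.78, adjusted p = 0.0344), a call lost without WT library 3 (0.105), double mutant library 1 (0.105) or double mutant library 3 (0.116). The fit on the 6 libraries called neither MT1A nor MT1C (adjusted p = 0.0567 and 0.099).

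By the words of their annotation, 12 of 314 ribosomal protein genes fell and none rose, beside 0.626% and 2.34% of all genes. They had 39 values above 0 and a median log2 change of -0.15, beside 9164 of 17904 and 0.01 for all genes. Without library 3 of the double mutant 3 fell, and the fit on 6 libraries called none. This grouping was chosen after the values were seen. Among 40 genes with an RPL or RPS symbol, 1 fell, RPS5B, and the median was -0.12. Its call was lost without WT library 1 (0.088), WT library 3 (0.104), double mutant library 2 (0.0918) or double mutant library 3 (0.0805) and in the fit on the 6 libraries (0.155). FIB2, the fibrillarin that methylates ribosomal RNA in the nucleolus, was chosen with its values known and fell from 42.5, 44.9 and 45.4 FPKM to 30.1, 31.9 and 32.7 (log2 change -0.48, SE 0.063, adjusted p = 0.000793). Its call held with each library left out. None of 6 tested response regulators of cytokinin signalling was called (median -0.33, 1 above 0), and none of 10 tested sulfur deficiency genes was (median -0.25, 2 above 0), with 4 of each lower at an unadjusted p below 0.05. All 15 tested genes of the stomatal lineage and guard cells had log2 changes below 0, from -0.51 to -0.03, with a median of -0.23. FAMA, the factor that ends guard cell division, was the only member called, at 10.4, 9.84 and 10.5 FPKM in WT and 6.78, 7.16 and 7.11 in the double mutant (log2 change -0.49, SE 0.10, adjusted p = 0.0177). Its call was lost without WT library 1 (0.0556), WT library 3 (0.0604), double mutant library 1 (0.0592) or double mutant library 3 (0.0557). The 15 log2 changes stand beside the lower summed guard cell markers given above, which share members with the list, and the part of cell numbers in this was not tested.

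None of 18 light-harvesting antenna genes was called (median 0.04), and 1 was lower at an unadjusted p below 0.05. The Rubisco small subunit genes RBCS1B and RBCS2B, neighbours of near-identical sequence on chromosome 5 whose reads may be split, had the largest losses in FPKM among called genes. RBCS1B fell from 1619.7, 1496 and 1610.3 FPKM to 1332, 1324 and 1222 (log2 change -0.29, SE 0.053, adjusted p = 0.00841). RBCS2B fell from 3193, 3061 and 3294 to 2860.0, 2759 and 2518 (log2 change -0.23, adjusted p = 0.0432), a call lost without WT library 1 (0.103), WT library 3 (0.121), double mutant library 2 (0.074) or double mutant library 3 (0.176). Among the largest gains in FPKM, UBQ10, a polyubiquitin gene used as a reference in plant expression work, stood at 575, 546 and 540.3 FPKM in WT and 698, 679.7 and 684 in the double mutant (log2 change 0.31, SE 0.048, adjusted p = 0.00222). It was called with each library left out. AT3G09275, a non-coding RNA, stood at 84.1, 92.6 and 85.9 FPKM in WT and 126, 133 and 140.3 in the double mutant (log2 change 0.60, adjusted p = 7.24e-05) and overlaps AT3G59940 and AT3G59950. The membrane protein gene NHL3, which overlaps AT5G06310 and AT5G01255, had 113 ± 19.9 against 69.8 ± 5.26 FPKM (log2 change 0.67, adjusted p = 0.0018). CAT2, the main leaf catalase, stood at 172, 168 and 149 FPKM in WT and 244, 213 and 199.7 in the double mutant (log2 change 0.42, adjusted p = 0.0343), a call lost without WT library 1 (0.0542), WT library 3 (0.123), double mutant library 1 (0.128) or double mutant library 2 (0.0618). The fit on the 6 libraries did not call RBCS1B, RBCS2B or CAT2 (adjusted p = 0.0889, 0.175 and 0.0732).

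In the remaining lists and families the counts are read against the 2.97% of all genes called, from which they are not shown to differ. None of 7 JAZ repressors of jasmonate signalling was called (median 0.13), none of 10 heat shock genes (median 0.09) and none of 17 PUB ubiquitin ligases (median 0.21, 16 above 0). None of 14 SAUR genes was called (median 0.14), none of 35 arabinogalactan proteins (median -0.11, 9 above 0) and none of 29 amino acid transporters (median -0.01). At an unadjusted p below 0.05 in limma, the JAZ, heat shock, PUB, SAUR, arabinogalactan and transporter genes held 2, 1, 5, 1, 10 and 9 members. Of 17 clock genes 1 rose, LNK3 (median 0.16), of 5 clade A PP2C phosphatases of abscisic acid signalling 1, PP2CA (median 0.16), of 10 alpha-expansins 1, EXPA11 (median 0.15), of 30 UDP-glycosyltransferases 1, UGT87A2 (median 0.12), of 22 ABCG transporters 1, ABCG22 (median -0.04), and of 17 Aux/IAA repressors 1, IAA7 (median 0.02). Of 18 beta-glucosidases 2 rose. Of 11 plasma membrane aquaporins PIP2B and PIP2E rose and PIP2;8 fell, and of 38 MYB factors MYB48 fell. The call of LNK3 was lost without WT library 1 (0.118), WT library 2 (0.0962), double mutant library 1 (0.156) or double mutant library 2 (0.125), that of PP2CA without WT library 1 (0.0649), WT library 3 (0.0612) or double mutant library 3 (0.0849) and that of EXPA11 without WT library 1 (0.0605) or double mutant library 3 (0.0753). The call of ABCG22 was lost without WT library 1 (0.0623), WT library 2 (0.0667), WT library 3 (0.112), double mutant library 1 (0.102) or double mutant library 3 (0.131), that of IAA7 without WT library 1 (0.0845), WT library 3 (0.102), double mutant library 1 (0.0832), double mutant library 2 (0.0514) or double mutant library 3 (0.0929) and that of MYB48 without WT library 3 (0.0643) or double mutant library 3 (0.0698). Among aquaporins PIP2E was lost without WT library 1 (0.0717), WT library 3 (0.0552), double mutant library 1 (0.0581) or double mutant library 3 (0.0842) and PIP2;8 without WT library 2 (0.112), WT library 3 (0.146), double mutant library 1 (0.165) or double mutant library 2 (0.115). In the fit on the 6 libraries none of LNK3, PP2CA, EXPA11, ABCG22, IAA7, MYB48, PIP2E and PIP2;8 was called, with adjusted p from 0.067 to 0.175.

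The genes that rose had fewer exons than those tested. Among protein-coding genes, the 403 rises had a median of 2 exons and 26.8% had a single exon. The 101 falls had a median of 3 exons with 9.90% single-exon genes, and all 16924 had a median of 5 with 13.7%. Median transcript lengths were 1651, 1270 and 1752.5 bases. Rises were spread over the 5 chromosomes, from 1.99% of the genes tested on chromosome 5 to 3.05% on chromosome 2. Of genes next to each other in the annotation, 19 pairs rose together, with 37 genes in all, and 2 pairs fell together, MT1A with MT1C and RBCS2B with RBCS1B. The pairs that rose include paralogs (GSTF7 and GSTF6, ERF6 and ERF1A, and MSRB8 and MSRB9). They also include neighbours with unlike annotations (AT2G32140, a transmembrane receptor, with AT2G32150, a haloacid dehalogenase-like hydrolase). MSRB9 was picked with its values known. Reads of paralogs in tandem can be split between them, so the members of a pair are not independent. Besides the overlaps given with the genes, AT1G09640, P5CS1, SARD1, RPP5, WRKY53, SOBIR1, RLP23, CPK28, LNK3, FER1, MT1A, CAT2, RAE1 and FIB2 overlap another annotated gene. Reads of an overlap on the same strand cannot be told apart. Those of an overlap on the other strand may also be shared, since the strand setting of the counting is not given.

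**Figure D5:**
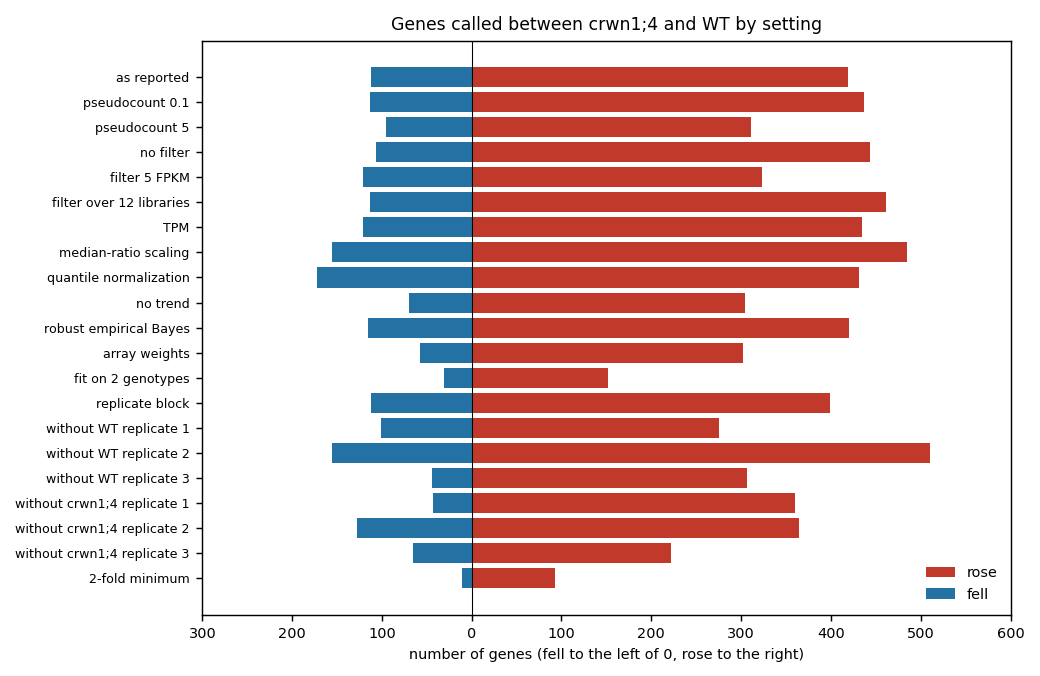
Number of genes called upward (right of 0) and downward (left of 0) between the double mutant and WT as reported, at top, and under each other setting. Rises outnumber falls under every setting shown, and the fit on 2 genotypes and the 2-fold minimum give the fewest calls.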

How the data were processed

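Leaf RNA of 12 libraries was sequenced. The authors deposited a table of FPKM values for 32833 genes, and per the submitters' processing notes reads were aligned with HISAT2 2.0.4 to TAIR10. For the counting tool, its annotation and its strand setting, nothing is given in the sources used here. The FPKM values hold no read counts, and their low values show no common step, so depth is unknown and no counting interval is given.

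Genes that reached 1 FPKM in 3 or more of the 6 WT and crwn1;4 libraries were tested on log2(FPKM + 1), which understates changes of low genes. A linear model with genotype as its only term was fitted to all 12 libraries with limma 3.58.1 in R 4.3.3, with an intensity trend and 8 residual degrees of freedom. Adjusted p are Benjamini-Hochberg values over the 17904 genes, a gene was called below 0.05, and errors of log2 changes are the model's standard errors. Other pseudocounts, filters, scalings, variance models, samples and a replicate block were tried. Correlations, motif searches and figures were made in Python 3.11.15 with matplotlib 3.10.9. Gene names, overlaps and upstream sequence came from the TAIR10.1 RefSeq annotation.

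The genes named are CRWN1, CRWN4 and their neighbours within 25 kb. Among genes called they are also the 20 largest rises and 15 largest falls with no overlap and a higher mean of at least 2 FPKM, and the 10 largest gains and losses in FPKM. Up to 40 genes called by the fit on 6 libraries, up to 4 members per list or family, and the genes listed at 0 in one genotype complete the rule, and some further genes are said to be picked with values known. The gene lists and the genes compared were chosen with earlier results of these data known. One upstream sequence is not reported here.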

Additional observations from a re-analysis of the deposited data

How the results depend on the processing

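The 531 calls (419 rises, 112 falls) became 183 (152 and 31) in the fit on the 6 libraries and 104 (93 and 11) with a 2-fold minimum. Falls numbered 172 after quantile normalization, 70 without the intensity trend and 58 with array weights. With 1 library left out, calls ranged from 287 to 666, rises from 222 to 510 and falls from 43 to 156, and the cause was not tested. The other settings gave 360 to 640 calls. With the replicate number as a replicate block, 511 genes were called (399 rises, 112 falls). Whether the numbers pair the libraries is not labelled. Deviations of same-numbered WT and double mutant libraries correlated at 0.05, -0.10 and -0.05, and those of unlike numbers at -0.07 to 0.12. With 3 libraries per genotype these values cannot decide on pairing. Of 321 genes that the naming rule and later choices gave, 180 were called. None of the 180 changed sign under any setting. Of the 180, 120 were called with each library left out and 105 by the fit on 6 libraries. Over all 531 calls these counts were 215 and 182. The naming rule draws in part on the fit on 6 libraries and on non-overlap, so the 180 do not stand for all calls. Unknown depth limits what can be said of genes near 1 FPKM, where single libraries are listed at 0.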

Other observations

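Library 1 of WT and library 1 of the double mutant were most often the lowest of their genotype. WT library 1 was lowest in 47.1% of the 17904 genes and library 1 of the double mutant in 42.7%. Among the 112 genes that fell, WT library 3 was the highest WT library in 67 (59.8%), beside 40.6% of all genes. Among 24 genes annotated with a heavy metal transport or detoxification domain, a grouping chosen after the values were seen, 4 rose with a median log2 change of -0.03, and among 55 ankyrin repeat genes 5 rose with a median of 0.07. Among 93 genes with histone in their annotation none rose and 1 fell, with a median of -0.09 and 29 values above 0. Of all genes 2.34% rose, 0.626% fell and 9164 of 17904 were above 0.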
